A study of Gossypium hirsutum with 6 samples.

Results

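The loci described here are the well-expressed newGene loci of cotton roots: identifiers that contain the word newGene and reached at least 5 FPKM in 3 or more of 6 libraries. FPKM, a level, is the number of fragments assigned to a locus after scaling for transcript length and for all mapped fragments. There were 683 such loci, of 5790 newGene identifiers and of 81166 identifiers in all. The members were thus chosen by their measured levels, without regard to group. They are set beside the 22230 identifiers with a Gohir. name, called annotated here, that passed the same filter.

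The roots came from upland cotton (Gossypium hirsutum), kept for 9 days with 300 mg/l of PS-COOH, commonly short for carboxyl-modified polystyrene, or with 0 mg/l as control. There were 3 libraries per group. The labels give no cultivar, plant age or pooling, and nothing says whether replicates are separate plants, so p-values measure a spread that may be technical.

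A reference-guided assembler such as StringTie joins aligned reads into transcripts and can report loci that lie outside the known gene models. In plants, loci of that kind can be protein-coding genes that the annotation missed, long non-coding RNAs, transcripts of transposable elements, or detached ends of known genes. Upland cotton is an allotetraploid, so reads from near-identical copies can be hard to assign to 1 of them. How the newGene identifiers were made, how reads that match several places were treated and whether strand was used is not given in these sources. No sequence, coordinate, length or function of a newGene locus was used, and none is given.

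The name unannotated rests on the identifier alone. Among 99454 RefSeq genes of cotton, 0 of the 683 loci were found by name, but 0 of the 22230 annotated identifiers were found either, so that search does not separate the sets. For the same reason root markers could not be looked up. Per library, 63090 to 65242 identifiers were above 0 FPKM. Read counts are not in the table, so absolute depth is unknown. Depth relative to control replicate 1, read from the smallest values, was 1.04 to 1.10 in the PS-COOH libraries and 0.973 to 1 in the control libraries.

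The filter kept 11.8% of the newGene identifiers and 29.5% of the annotated ones. Within the filter the newGene loci sat near its lower edge. Their mean over the 6 libraries had a median of 7.42 FPKM, with an interquartile range of 5.84 to 10.9 FPKM, while annotated identifiers had a median of 10.6 FPKM and an interquartile range of 6.93 to 19.5 FPKM. The newGene median fell at percentile 29.3 of the annotated means. At least 20 FPKM was reached by 51 newGene loci (7.47%), against 24.4% of the annotated identifiers. Not 1 newGene locus averaged 100 FPKM, a level reached by 554 annotated identifiers. Well-expressed therefore describes these loci among newGene identifiers, whose overall median was 0.862 FPKM, and not among annotated ones.

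**Figure D1:**
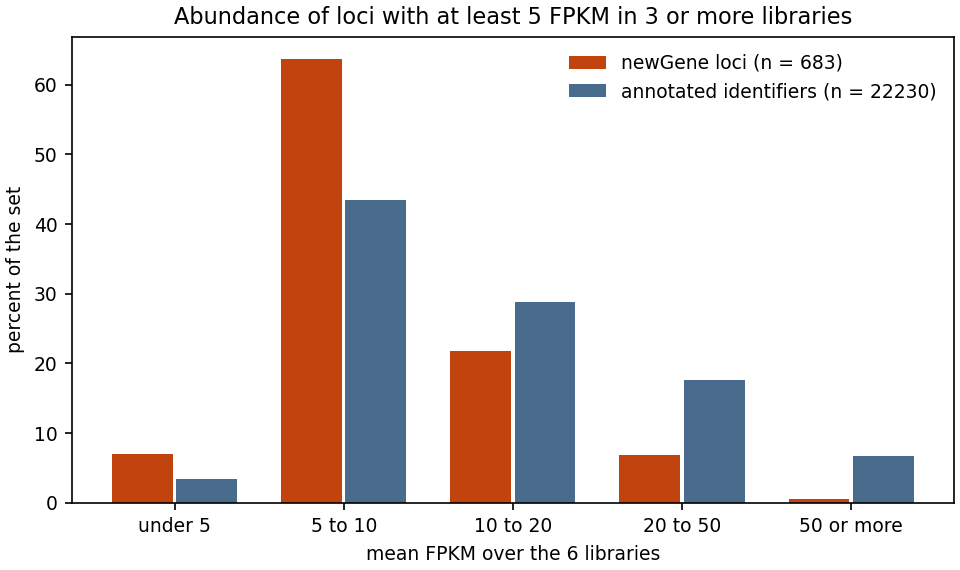
Share of each set (vertical axis, percent) by mean FPKM over the 6 libraries (horizontal axis), for 683 newGene loci and 22230 annotated identifiers that passed the same filter. The class from 5 to 10 FPKM holds 63.7% of the newGene loci and 43.4% of the annotated identifiers, and the class of 50 or more holds 0.586% and 6.77%.

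The threshold cut through a dense part of the distribution. By the third highest value, which decides membership, the closest loci inside were at 5.006 and 5.008 FPKM and the closest outside at 4.983 and 4.975 FPKM. Between 5 and 6 FPKM by that value lay 160 loci, and between 4 and 5 FPKM lay 218 that were left out. All 6 libraries were at 5 FPKM or more in 449 of the 683 loci (65.7%), against 82.5% of the annotated identifiers. A further 21 loci passed through the 3 PS-COOH libraries alone and 34 through the 3 control libraries alone. By that route the groups of those 55 could not overlap, so the counts below are also given for the 449.

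The newGene loci held a small part of the transcriptome. Their share of the summed FPKM was 1.10%, 1.13% and 1.12% in PS-COOH replicates 1 to 3, against 1.26%, 1.25% and 1.22% in control replicates 1 to 3. All PS-COOH libraries lay below all control libraries. The summed FPKM of the loci was 6756 ± 154 in the PS-COOH libraries and 7005 ± 143 in the control libraries (SD, n = 3 each), and these ranges overlap. The sum over all identifiers was larger in the PS-COOH libraries, at 603559 ± 6072 FPKM, than in the control libraries, at 562920 ± 4829.9 FPKM (SD, n = 3 each), so an equal FPKM is a smaller share in the PS-COOH libraries. The median newGene locus was at 7.12 to 7.47 FPKM in the PS-COOH libraries and at 7.48 to 7.77 FPKM in the control libraries. The same median over annotated identifiers was 10.6 to 10.7 FPKM in the PS-COOH libraries and 10.6 FPKM in each control library. In bulk roots, fewer cells of a type and less RNA per cell cannot be told apart.

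Of the loci, 580 to 591 were at 5 FPKM or more in a PS-COOH library and 617 to 621 in a control library. The filter used these same values. Over all newGene identifiers, in the filter or not, the counts were 603 to 630 in PS-COOH libraries and 662 to 689 in control libraries. Over all Gohir. identifiers they were 21206 to 21527 in PS-COOH libraries and 21362 to 21665 in control libraries. The number of newGene identifiers above 0 ran the other way, with 5018 to 5088 in PS-COOH libraries and 4912 to 4942 in control libraries. Relative depth was also higher in the PS-COOH libraries, and its part in that count was not tested.

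The most abundant locus, Gossypium_hirsutum_newGene_9277, did not pass the test between the groups. It measured 89.3, 109.9 and 95.6 FPKM in the PS-COOH libraries and 98.9, 101 and 97.2 FPKM in the control libraries. The groups overlap, with the highest value in PS-COOH replicate 2, and the log2 difference was -0.02 with a standard error of 0.07 (adjusted p = 0.88 by limma). By mean level it ranked 565 among all identifiers.

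The second most abundant locus had a different profile. Its level was 138, 167 and 138 FPKM in the PS-COOH libraries, against 24.3, 30.2 and 22.5 FPKM in the control libraries. Every PS-COOH library was far above every control library. Its mean was 5.76-fold higher in the PS-COOH libraries, and it rose by 2.49 ± 0.10 on the log2(FPKM + 1) scale (SE; adjusted p = 5.8e-09 by limma). It was the only newGene locus with a group mean above 100 FPKM.

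The third measured 73.9, 74.2 and 74.1 FPKM in the PS-COOH libraries, against 97.3, 90.7 and 96.3 FPKM in the control libraries. The PS-COOH libraries are nearly equal and all lower, and the locus fell, by 0.35 on the log2(FPKM + 1) scale with a standard error of 0.05 (adjusted p = 0.00012 by limma). Of the 10 most abundant loci, 2 rose, 4 fell and 4 did not pass. At 50 FPKM or more, 38.7% of annotated identifiers rose and 26.6% fell. From 20 to 50 FPKM, 28.7% of them rose and 23.8% fell. The other rise among the 10 loci was the seventh, at 58.2, 59.8 and 57.7 FPKM in the PS-COOH libraries. In the control libraries it was at 35.6, 31.8 and 32.3 FPKM. Those groups lie well apart, with a ratio of means of 1.76. The other 3 falls were small, with log2 differences of -0.15 to -0.21, and each lost its call when the prior variance had no trend and when some single libraries were left out. The 10 together held 8.70% of the summed mean level of the newGene loci.

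Replicate libraries differed more from each other, at the median, over newGene loci than over annotated identifiers. The median coefficient of variation (SD over mean of the 3 FPKM values) was 9.00% in PS-COOH and 9.34% in control libraries for the newGene loci. For the annotated identifiers it was 6.46% in PS-COOH and 6.57% in control libraries. In both sets the median shrank with each higher class up to 50 FPKM. Within 10 to 20 FPKM the newGene medians were 7.18% in PS-COOH and 8.03% in control libraries, against 6.22% and 6.24% for annotated identifiers in PS-COOH and control libraries. In the class from 20 to 50 FPKM they were 5.30% and 5.79%, against 4.91% and 4.86%, in the same group order. No test of these set differences was made.

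**Figure D2:**
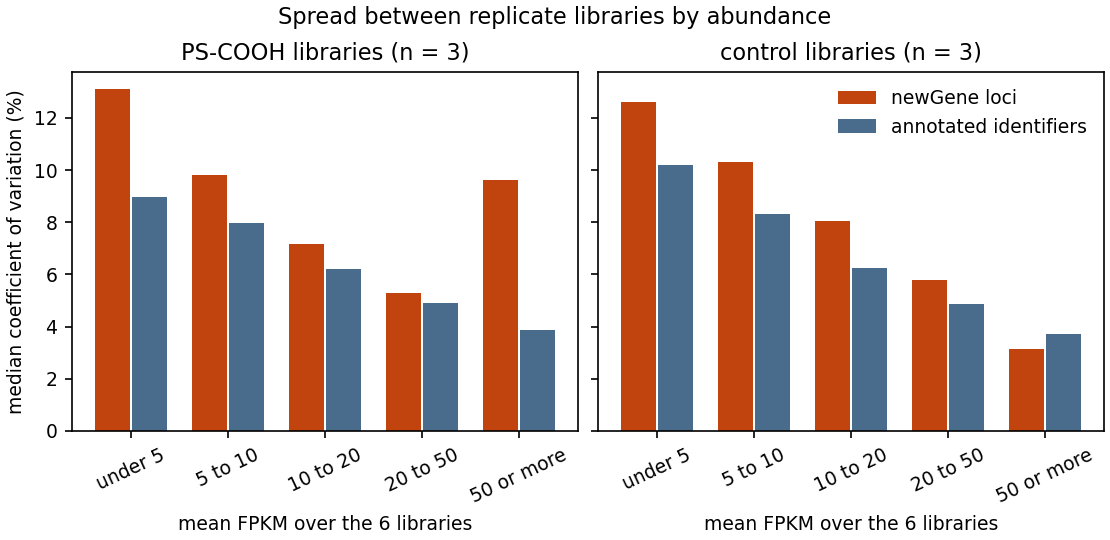
Median coefficient of variation between the 3 libraries of a group (vertical axis, percent) by mean FPKM (horizontal axis), in PS-COOH libraries (left) and control libraries (right). In each class under 50 FPKM the newGene median is above the annotated one; the class of 50 or more holds only 4 newGene loci.

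Across loci, log2(FPKM + 1) levels correlated at 0.908 to 0.959 (Pearson's r over 683 loci) between PS-COOH libraries and at 0.916 to 0.943 between control libraries. Between libraries of different groups r was 0.748 to 0.790. For the annotated identifiers r was 0.988 to 0.991 between PS-COOH libraries, 0.987 to 0.988 between control libraries and 0.925 to 0.942 between groups. The newGene levels span a narrower range, and loci of 1 library share its depth. Loci that passed the filter through 1 group alone were 8.05% of the newGene loci and 5.13% of the annotated identifiers. Their part in r between groups was not tested.

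A few loci were erratic. By the SD of log2(FPKM + 1) levels within a group, the widest spread among the 449 was that of Gossypium_hirsutum_newGene_6068, at 27.3, 6.16 and 27.5 FPKM in the PS-COOH libraries and 30.5, 17.8 and 11.3 FPKM in the control libraries. PS-COOH replicate 2 and control replicate 3 are low and the groups overlap, and its log2 difference of -0.11 had a standard error of 0.44 (adjusted p = 0.87 by limma). The second widest by that measure was in control libraries, at 10.7, 5.31 and 8.71 FPKM, while the same locus held 8.89, 9.72 and 8.57 FPKM in PS-COOH libraries. A coefficient of variation of 30% or more was found for 18 loci (2.64%) in PS-COOH and 34 (4.98%) in control libraries. The annotated shares were 0.409% in PS-COOH and 0.733% in control libraries. Among the 449 loci these counts were 1 and 4, so the other wide loci were under 5 FPKM in at least 1 library.

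Between the groups, falls outnumbered rises. With limma on log2(FPKM + 1) over all 45258 tested identifiers and a Benjamini-Hochberg adjusted p under 0.05, 47 newGene loci rose (6.88%), 148 fell (21.7%) and 488 did not pass. Together 195 were called (28.6%), where the background was 30.8% over all tested identifiers and 40.8% over annotated identifiers of the same filter. By direction, the background over all tested identifiers was 15.7% for rises and 15.1% for falls. Over the annotated identifiers it was 20.2% for rises and 20.6% for falls. The newGene share of falls was thus near that of annotated identifiers, and the share of rises was lower. Rises made up 24.1% of the called newGene loci and 49.5% of the called annotated identifiers.

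The 449 loci at 5 FPKM or more in every library also held more falls, with 19 that rose (4.23%) and 98 that fell (21.8%), against 19.3% and 20.2% of the annotated identifiers with that property. Differences below 0, whether called or not, were found in 65.4% of the 683 and in 66.8% of the 449, against 51.9% of the annotated identifiers under either rule. The median log2 difference was -0.10 over the newGene loci, -0.013 over annotated identifiers and -0.016 over all tested identifiers. When each library was left out in turn, the newGene median ranged from -0.122 to -0.078 and the annotated one from -0.017 to -0.008. These are descriptions of the sets, and no test compares them.

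**Figure D3:**
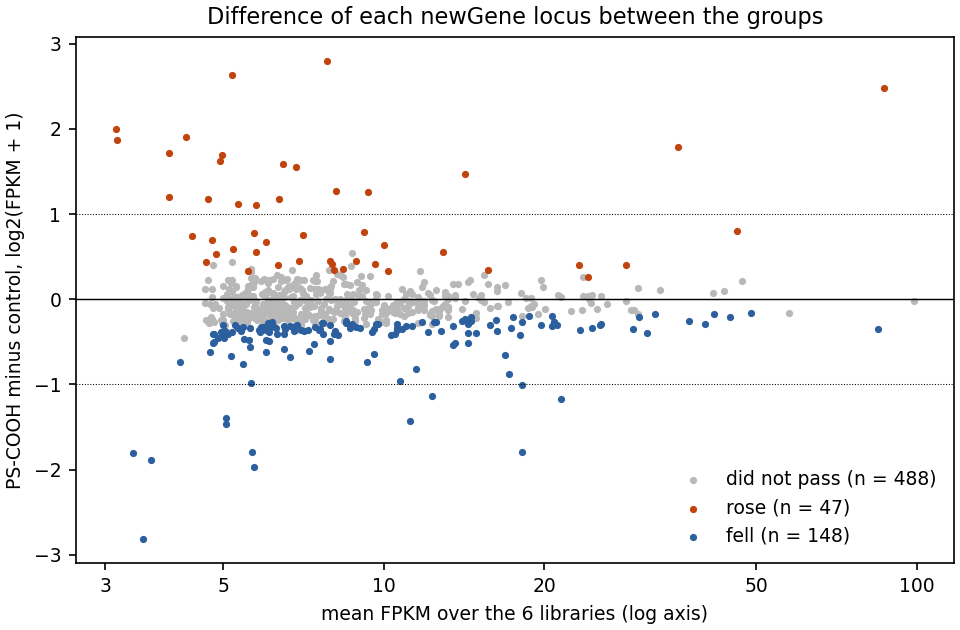
Difference of each of the 683 newGene loci between PS-COOH and control libraries on the log2(FPKM + 1) scale (vertical axis) against its mean FPKM (horizontal axis, log). Most called falls lie between 0 and -1, whereas the 20 rises of at least 1 reach 2.80; dotted lines mark 1 and -1.

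In each abundance class the percentage that rose was below the annotated one. From 5 to 10 FPKM, 5.52% of 435 newGene loci rose and 17.0% fell, against 13.5% and 17.9% of annotated identifiers. From 10 to 20 FPKM, 3.36% of 149 loci rose and 27.5% fell, against 19.3% and 20.5%. From 20 to 50 FPKM, 10.6% of 47 loci rose and 40.4% fell, against 28.7% and 23.8%. The median newGene difference changed little over these classes, at -0.090, -0.103 and -0.120 from low to high. The annotated median went the other way along the same classes, at -0.042, -0.008 and 0.035. The standard error was larger for newGene loci, with a median of 0.10 against 0.085, and its part in the shares called was not tested.

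**Figure D4:**
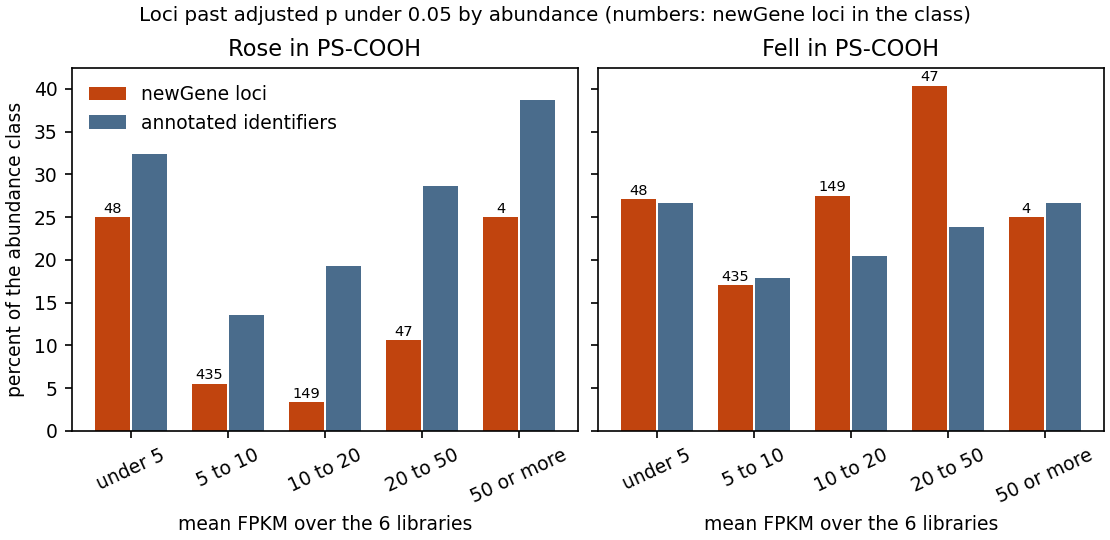
Percent of each abundance class that rose (left) or fell (right) in PS-COOH libraries, for newGene loci and annotated identifiers; numbers above bars are newGene loci in the class. The newGene bar for rises is the lower one in each class, and from 10 to 50 FPKM the newGene bar for falls is the higher one.

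The 3 PS-COOH and 3 control values did not overlap in 266 newGene loci (38.9%), with PS-COOH lower in 205 and higher in 61. This compares with 53.6% of annotated identifiers and 44.5% of all tested ones. Among the 449 loci the groups did not overlap in 172 (38.3%), with PS-COOH lower in 144 and higher in 28. The share was 52.9% for annotated identifiers at 5 FPKM or more in every library. Called rises had a median log2 difference of 0.752 over all newGene loci and 0.413 among the 449. The annotated medians were 0.405 and, at 5 FPKM or more in every library, 0.367. The larger newGene median thus came largely with loci under 5 FPKM in some library. Called falls had medians of -0.359 over all newGene loci and -0.332 among the 449. The annotated medians were -0.359 and, at 5 FPKM or more in every library, -0.339. By the ratio of group means, 421 loci (61.6%) differed by less than 1.2-fold, near the 60.6% of annotated identifiers. A ratio of 2 or more was found for 34 loci (4.98%), 20 higher and 14 lower in PS-COOH libraries, against 3.69% of annotated identifiers, 651 higher and 169 lower. Among the 449 loci such a ratio was found for 9 (2.0%), 3 higher and 6 lower. For annotated identifiers at 5 FPKM or more in every library it was 1.71%, 252 higher and 62 lower. With so few loci, the direction among the 449 is not settled.

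Large changes were few in number. Here 2-fold stands for a called change of 1 or more on the log2(FPKM + 1) scale, which 20 loci that rose (2.93%) and 12 that fell (1.76%) reached. The annotated shares were 2.39% for rises and 0.535% for falls, and those over all tested identifiers were 1.86% and 0.572%. Most of these loci entered through 1 group: 15 of the 20 rises had no control library at 5 FPKM, and 7 of the 12 falls had no PS-COOH library at that level. Among the 449, 3 rose and 5 fell at least 2-fold (0.668% and 1.11%), against 1.18% and 0.278% of annotated identifiers. So few loci make the shares uncertain, and the numbers of 2-fold rises and falls among the 449 do not settle which was more frequent.

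**Figure D5:**
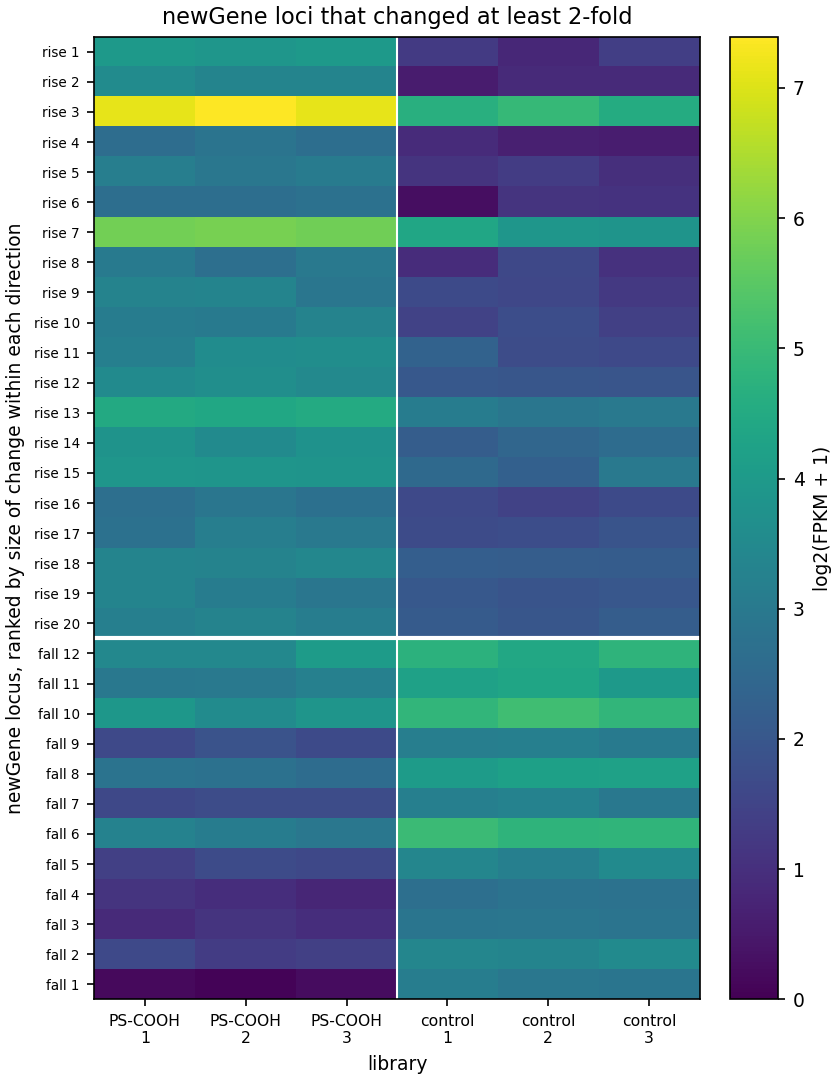
Level of the 32 newGene loci that changed at least 2-fold, as log2(FPKM + 1) by colour, in 3 PS-COOH and 3 control libraries (columns); rows run from the largest rise at the top to the largest fall at the bottom. The 2 groups of columns differ in every row, and the third row is the second most abundant locus, at 138 to 167 FPKM in PS-COOH libraries.

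The largest rise was that of Gossypium_hirsutum_newGene_7856. It measured 14.9, 13.7 and 14.6 FPKM in the PS-COOH libraries, against 1.38, 0.760 and 1.57 FPKM in the control libraries. The PS-COOH libraries are tight and high, and the control libraries are all near 1 FPKM. The mean was 14.4 ± 0.631 FPKM in the PS-COOH and 1.24 ± 0.425 FPKM in the control libraries (SD, n = 3 each), an 11.6-fold ratio. It rose by 2.80 with a standard error of 0.13 on the log2(FPKM + 1) scale (adjusted p = 2.3e-08 by limma). Gossypium_hirsutum_newGene_3364 followed, at 10.8, 9.08 and 9.09 FPKM in the PS-COOH libraries and 0.465, 0.853 and 0.831 FPKM in the control libraries. Its groups are likewise far apart, and it rose by 2.64 with a standard error of 0.13 on that scale (adjusted p = 2.4e-08 by limma). Both loci passed the filter through the PS-COOH libraries alone. By that route their groups could not overlap, so the p-values are not independent of the filter.

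Among the abundant rises, the next after the second most abundant locus held 55.8, 57.5 and 53.9 FPKM in the PS-COOH libraries and 19.8, 13.8 and 13.3 FPKM in the control libraries. Control replicate 1 is the highest of its group but remains well below each PS-COOH library, and the rise was 1.79 with a standard error of 0.11 on that scale (adjusted p = 2.1e-07 by limma). The third such rise had 21.6, 20.3 and 22.0 FPKM in the PS-COOH libraries and 7.66, 6.5 and 6.9 FPKM in the control libraries, a ratio of means of 3.03. These 3 were the only 2-fold rises among the 449 loci. Over all 20, group means spanned 5.48 to 148 FPKM in the PS-COOH libraries and 0.655 to 25.7 FPKM in the control libraries.

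The largest fall was that of Gossypium_hirsutum_newGene_871, at 0.132, 0.0572 and 0.187 FPKM in the PS-COOH libraries and 7.79, 6.65 and 6.35 FPKM in the control libraries. All PS-COOH libraries are close to 0, and the lowest of these is the lowest value of any member in any library. On the log2(FPKM + 1) scale it fell by 2.81 with a standard error of 0.12 (adjusted p = 1.3e-08 by limma), and the 55.2-fold ratio of means rests on PS-COOH values too low to fix it well. Gossypium_hirsutum_newGene_3357 had 2.08, 1.48 and 1.63 FPKM in the PS-COOH libraries and 9.42, 9.01 and 10.7 FPKM in the control libraries. It fell by 1.97 ± 0.11 on the log2(FPKM + 1) scale (SE; adjusted p = 1.1e-07 by limma). Both falls passed the filter through the control libraries alone, so their groups could not overlap and the p-values are not independent of the filter.

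Of the more abundant falls, 1 locus was at 8.78, 7.55 and 6.57 FPKM in the PS-COOH libraries, against 31.7, 27.2 and 27.7 FPKM in the control libraries. Its groups stand far apart, with a control mean 3.78-fold above the PS-COOH mean. The most abundant 2-fold fall had 14.1, 10.9 and 13.6 FPKM in the PS-COOH libraries and 27.9, 34.1 and 28.2 FPKM in the control libraries, and it fell by 1.17 with a standard error of 0.10 (adjusted p = 2.8e-06 by limma). Group means of the 12 falls spanned 0.126 to 12.9 FPKM in the PS-COOH libraries and 5.82 to 30.1 FPKM in the control libraries.

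No newGene locus of the set was found in only 1 group in the strict sense. Not 1 of the 683 was listed at 0 in all libraries of a group, nor under 0.1 FPKM in all of them, and 0 were listed at 0 in any single library. With a limit of under 1 FPKM throughout one group and at least 5 FPKM throughout the other, 3 loci qualified. Of these, 1 was low in PS-COOH libraries (Gossypium_hirsutum_newGene_871) and 2 were low in control libraries. Those 2 were Gossypium_hirsutum_newGene_3364 and a locus at 5.22, 6.25 and 5.41 FPKM in the PS-COOH libraries and 0.893, 0.568 and 0.504 FPKM in the control libraries. By the same limit 8 annotated identifiers were low in PS-COOH and 8 in control libraries (0.036% each), and over all tested identifiers the shares were 0.0199% for low in PS-COOH and 0.0221% for low in control libraries. These loci are defined by their difference, so it is no separate result.

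Among all 5790 newGene identifiers, 10 were listed at 0 in all 3 libraries of one group and at 1 FPKM or more in each of the other. All lay below the filter. Of these, 9 were at 0 in PS-COOH libraries and 1 in control libraries. By the same limit, 1 of all 75376 annotated identifiers was at 0 in PS-COOH libraries and 3 were at 0 in control libraries. Of these 10, the identifier closest to membership was listed at 0 in each PS-COOH library. It was at 5.05, 5.99 and 4.52 FPKM in the control libraries, so 1 value kept it out. The identifier whose number is 2 higher was also listed at 0 in each PS-COOH library, with 5.75, 4 and 4.36 FPKM in the control libraries. A value of 0 can also be a failed estimate, which the table cannot show.

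The numbers in the identifiers run from 1 to 9609, and members were found from 58 to 9603. Each block of 1000 numbers held 9.31% to 15.5% members among its newGene identifiers, and falls outnumbered rises in every block. Whether the numbers follow position in the genome is not given. Consecutive numbers were held by 61 pairs of members. Their log2 differences correlated at r = 0.0628 over these pairs, and 30 of the 61 pairs had differences of the same sign. Both partners were called in 4 pairs, of which 1 rose together, 2 fell together and 1 split. Among the 621 pairs of members next to each other in number order but not consecutive, both were called in 49, of which 1 rose together, 28 fell together and 20 split. In those pairs r was -0.0564 and 349 had differences of the same sign, so consecutive pairs were near that background.

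The pair that rose together had 7.34, 5.46 and 6.91 FPKM in the PS-COOH libraries and 0.910, 2.01 and 1.07 FPKM in the control libraries for the lower number. The higher number had 8.83, 9.04 and 6.42 FPKM in the PS-COOH libraries and 2.13, 1.99 and 1.33 FPKM in the control libraries. Their log2 differences were close, at 1.72 and 1.69. Of the pairs that fell together, 1 holds the most abundant 2-fold fall, and its partner was at 10.0, 9.87 and 15.8 FPKM in the PS-COOH libraries and 25.7, 20.7 and 26.9 FPKM in the control libraries. The split pair holds Gossypium_hirsutum_newGene_871, the largest fall. Its neighbour by number rose, with 15.4, 16.0 and 15.1 FPKM in the PS-COOH libraries and 11, 9.2 and 10.6 FPKM in the control libraries, a rise of 0.55 with a standard error of 0.08 (adjusted p = 0.00021 by limma). These pairs were picked after their values were seen.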

How the data were processed

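The authors deposited 1 table of FPKM values for 6 libraries, 3 per group, assigned by their titles. Reads were 150-bp paired-end, per the labels' protocols, and the submitters' processing notes name HISAT2 and StringTie, with no version or role. Genome build and annotation are not given in these sources. The moderated test of limma 3.58.1 (R 4.3.3) was applied to log2(FPKM + 1); its prior variance followed abundance and there was no covariate. It covered the 45258 identifiers with at least 1 FPKM in 3 or more libraries. P-values were adjusted over all of these by Benjamini-Hochberg. The fit was also run on data simulated with normal noise of its own fitted variances. That run checks the code and cannot show whether FPKM values meet the model. The pseudocount understates changes of low loci. Members and lists were chosen with earlier results of these data known. Identifiers are printed for the 2 largest rises and 2 largest falls among called members without overlap; other loci are named by rank, except 2 that did not pass. No gene list could be formed. No pairing by replicate number was seen: same-numbered deviations from group means correlated at -0.0726, -0.0611 and -0.00731. A pairing in the design without such a shared effect would not show in these values. Alternatives were pseudocounts of 0.1 and 0.5, 2 filters, 2 scalings, 2 priors, library weights, a replicate block, leaving out each library and 2 stricter member rules. No value was left out. Figures were drawn with matplotlib 3.10.9.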

Additional observations from a re-analysis of the deposited data

How the results depend on the processing

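Across the fit alternatives, no count of newGene or annotated calls moved by more than 1.5 times, and falls outnumbered rises among newGene loci under each. Stricter member rules gave fewer, by construction. With 5 FPKM in all 6 libraries, 19 newGene loci rose (4.23%) and 98 fell (21.8%), 3 and 5 of them at least 2-fold. Under that rule 3539 annotated identifiers rose (19.3%) and 3710 fell (20.2%), 216 and 51 of them at least 2-fold. With 10 FPKM in 3 libraries, 17 newGene loci rose and 66 fell, 7 and 5 at least 2-fold. Under that rule 3181 annotated identifiers rose and 2845 fell, 328 and 72 of them at least 2-fold. The rule of 10 FPKM can also admit loci through 1 group alone. The sizes of its sets are not given here, so its counts cannot be read as shares. Leaving out single libraries gave 41 to 60 newGene rises (6.0% to 8.78%) and 110 to 133 falls (16.1% to 19.5%). Of annotated identifiers of the same filter, 16.4% to 19.1% rose and 15.7% to 18.7% fell in those fits. The newGene falls were thus near the annotated share there too, and the rises were below it. No pairing by replicate number was seen, but a fit with a replicate block gave 55 newGene rises (8.05%) and 136 falls (19.9%). Of these, 20 rises and 12 falls were at least 2-fold. Under that block 18.9% of annotated identifiers of the same filter rose and 18.3% fell. The PS-COOH minus control share of summed FPKM was -0.25 percentage points over all newGene identifiers, against -0.127 as reported. The newGene over annotated ratio of median spread was 1.36 for the SD of log2 levels and 1.41 for the coefficient of variation. Among loci at 5 FPKM in all libraries the ratio for the SD of log2 levels was 1.31. By the looser limit of 1 FPKM, 3 loci were found in 1 group. Of 46 loci followed through 16 settings, none changed direction while called. A call was lost in 18 locus settings and gained in 9, all for loci with log2 differences under 1 in size. The 46 include all 32 loci that changed at least 2-fold, each with adjusted p of 0.00025 or less by limma. They therefore do not stand for the other called loci. Absolute depth is unknown, so how many fragments stand behind values near 0 FPKM cannot be told.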
